A study of Homo sapiens with 9 samples.

Results

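The 37 genes of the human mitochondrial genome were followed in RNA-seq libraries of LNCaP:C4-2 cells, a castration-resistant derivative of the LNCaP prostate cancer cell line. The genes were chosen as every gene on the chromosome named MT in the deposited count tables, which gave 37 of 60675 annotated genes: 13 protein genes, 2 rRNA genes and 22 tRNA genes. The cells carried a doxycycline-inducible pLKO.1-puro construct expressing either a non-targeting shRNA (shScramble) or one of a pair of shRNAs against METTL3, called guide 2 and guide 1, and there were 3 libraries in each group. All groups were lentivirally transduced, selected with puromycin as stable lines, grown in charcoal-stripped serum and, per the protocol in the labels, given doxycycline at 1 μg/ml for 6 days, although the sample titles name a vehicle. Nothing in the labels says that the libraries of a group came from separate cultures, so p-values measure the spread between these libraries, which may be technical.

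The mitochondrial genome is a small circular DNA present in many copies per cell. Both of its strands are transcribed into long precursor RNAs, from which the tRNAs, lying between most of the other genes, are cut out to release the rRNAs and mRNAs. Its proteins are core subunits of respiratory complexes I, III and IV and of the ATP synthase (complex V), and all of the factors that copy, transcribe and process it are encoded in the nucleus. METTL3 is the catalytic subunit of the nuclear complex that writes m6A on RNA.

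METTL3 itself was measured first, as a check of the labels. Its counts were 922, 1010 and 753 with shScramble and 382, 415 and 349 with guide 2. The libraries labelled guide 1 held 837, 837 and 886. Scaled for depth, the guide 2 libraries lay below all others (log2 fold change -0.95 ± 0.07 SE against shScramble), whereas the libraries labelled guide 1 differed from shScramble by -0.08 ± 0.06 (edgeR's quasi-likelihood test, adjusted p = 0.251). A lower METTL3 RNA was therefore measured with guide 2 and not in the libraries labelled guide 1. Total assigned counts were 21899501 to 30897639 per library, and the guide 2 libraries had counts on fewer genes (24884 to 26505) than the shScramble libraries (28459 to 29586). The luminal prostate markers KLK3, HOXB13, FOLH1, TMPRSS2, KRT8 and KRT18 were expressed, while the basal markers KRT5 and TP63 had 0 counts.

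The sequences of 4 tRNA genes, all annotated on the minus strand and all different between the guides in the results below, are shown here as encoded in the reference genome GRCh38, 5′ to 3′ in the sense of the tRNA. Capitals mark the anticodon. MT-TN, MT-TC and MT-TY, for asparagine, cysteine and tyrosine, lie next to each other at MT positions 5657 to 5729, 5761 to 5826 and 5826 to 5891, between MT-ND2 and MT-CO1. MT-TP, for proline, lies at positions 15956 to 16023, beyond MT-CYB and next to the control region.
MT-TN: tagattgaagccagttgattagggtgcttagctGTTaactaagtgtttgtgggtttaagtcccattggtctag
MT-TC: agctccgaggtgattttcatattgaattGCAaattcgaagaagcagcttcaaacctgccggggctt
MT-TY: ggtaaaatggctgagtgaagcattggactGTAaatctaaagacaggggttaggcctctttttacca
MT-TP: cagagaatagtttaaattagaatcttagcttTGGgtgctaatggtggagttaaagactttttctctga

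The mitochondrial genes held a smaller share of the counts in both shMETTL3 groups, and most so with guide 2. They took 6.34%, 6.30% and 5.96% of all assigned counts in the shScramble libraries (6.20% ± 0.211 SD, n = 3), 3.92%, 4.92% and 3.78% with guide 2 (4.21% ± 0.622) and 5.08%, 5.25% and 5.30% in the libraries labelled guide 1 (5.21% ± 0.115). These raw shares did not overlap between the 3 groups. The mean share was 32.1% lower with guide 2 and 15.97% lower in the libraries labelled guide 1. On edgeR's TMM scale, used for the gene levels below, the shMETTL3 groups did overlap. The scaling factors were 0.93 to 0.94 with guide 2 and 1.02 to 1.04 in the other libraries. Scaled means were 59763 CPM (counts relative to library size) in shScramble, 44979 with guide 2 and 50685 with guide 1. Guide 2 replicate 2 was at 52384 and the guide 1 libraries at 49512 to 52170, all below shScramble (57152 to 61101). Counting error is negligible at this depth, since the 95% Wilson interval of each share was at most 0.00991 percentage points to either side, so the spread between libraries sets the precision. In bulk RNA, fewer mitochondrial genomes per cell and less RNA per genome cannot be told apart, and neither can a change of these RNAs and the reverse change of the nuclear RNAs.

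Within the guide 2 group, replicate 2 stood apart. It had the highest level of the 3 guide 2 libraries in 15 of the 15 rRNA and protein genes, and its share of 4.92% was nearest to the other groups. Of the shScramble libraries, replicate 3 was the lowest in 11 of these 15 genes. Both facts bear on the tests of single mRNAs given below.

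The fall was not the same for the 3 classes of RNA. The rRNA share went from 1.85% ± 0.0689 in shScramble to 1.16% ± 0.105 with guide 2 and to 1.17% ± 0.0323 in the libraries labelled guide 1, which is 37.6% and 36.8% lower. The share of the protein genes was 4.31% ± 0.145, 3.03% ± 0.514 and 4.01% ± 0.0905 in the same order, 29.7% and 7.05% lower. The tRNA genes held only 0.0339% ± 0.00245, 0.0179% ± 0.00280 and 0.0309% ± 0.000377. The rRNA share was thus about as low in one shMETTL3 group as in the other, while the mRNA and tRNA shares were low mainly with guide 2. As a share of the mitochondrial counts alone, rRNA made up 29.9% ± 0.376 in shScramble, 27.6% ± 1.499 with guide 2 and 22.5% ± 0.343 in the libraries labelled guide 1.

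**Figure D1:**
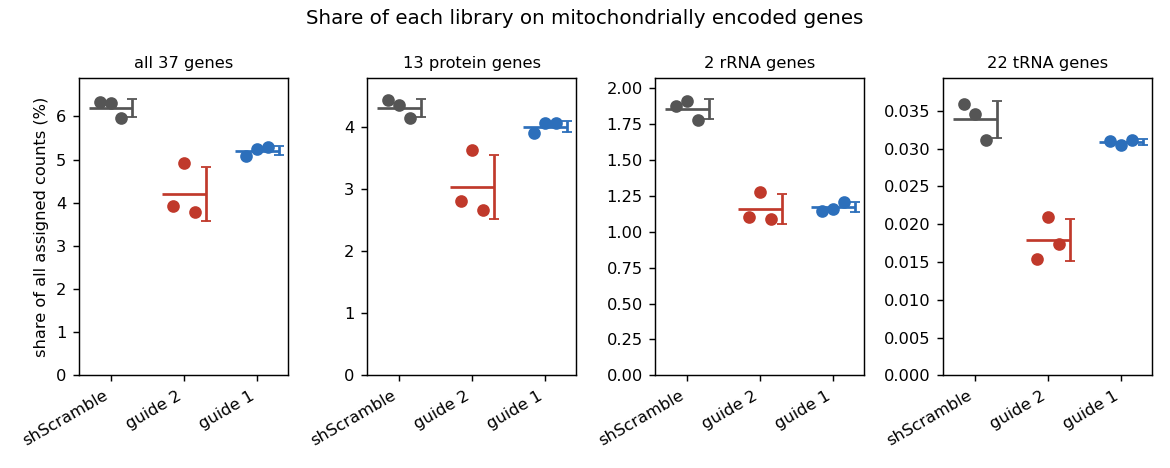
Share of all assigned counts (%, y axis from 0) on the mitochondrially encoded genes and on each class of them, for the 3 libraries of each group (points), with the mean (horizontal line) and SD (bar). The share of all 37 genes fell from 6.20% in shScramble to 4.21% with guide 2 and 5.21% in the libraries labelled guide 1, the rRNA share was low in both shMETTL3 groups, and the tRNA share was low with guide 2.

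Levels were compared between genes only per length, as TMM-scaled CPM per kilobase, where CPM are counts relative to library size and TMM is edgeR's scaling between libraries. In shScramble, the 16S rRNA gene MT-RNR2 was highest at 9959 ± 376 CPM per kilobase, above MT-CO1 at 7092 ± 222 and MT-CO3 at 6827 ± 335, both for complex IV subunits. MT-CO2 (5537 ± 154), MT-ATP6 (5192 ± 356), MT-ND4L (4507 ± 504), MT-ND3 (3724 ± 284) and MT-ND4 (3455 ± 167) came next. MT-ND1, the 12S rRNA gene MT-RNR1, MT-CYB and MT-ND2 lay at 2650 ± 258, 2469 ± 183, 2451 ± 175 and 2339 ± 93.7. The lowest were MT-ND5 at 1145 ± 78.0, MT-ND6, the only protein gene on the minus strand, at 1095 ± 37.0, and MT-ATP8 at 662 ± 344. MT-ATP8 has 207 bases and shares 46 of them with MT-ATP6. How reads over both genes were counted is not stated, so the low MT-ATP8 value cannot be taken as the level of a separate mRNA. The ranges of neighbours in this order overlapped except after MT-RNR2, MT-CO3, MT-ND4, MT-ND2 and MT-ND6, so that the genes form steps rather than a strict ranking.

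The comparison of each gene with shScramble was made with edgeR's quasi-likelihood test over all 19278 genes that passed a filter on low counts, with Benjamini-Hochberg adjusted p-values. Calls required an adjusted p under 0.05 together with a change of 1.5-fold or more. Both rRNA genes and all 13 protein genes passed the filter in every group, as did 14 of the 22 tRNA genes, 7 tRNA genes passed it through some of the groups only, and MT-TF, for phenylalanine, had 2 to 9 counts and was not tested. The comparisons of guide 2 and of guide 1 share the shScramble libraries, and their values are therefore set side by side without a test of their likeness. The direct comparison of guide 2 with guide 1 does not use those libraries.

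MT-RNR1 and MT-RNR2, the RNAs of the small and large mitochondrial ribosomal subunits, fell in both shMETTL3 groups. MT-RNR1 (MT positions 648 to 1601) was at 2443, 2468 and 2155 CPM in shScramble, 1534, 1726 and 1603 with guide 2 and 1222, 1254 and 1410 in the libraries labelled guide 1. The groups did not overlap, and the libraries labelled guide 1 were the lowest. The change of MT-RNR1 was -0.54 ± 0.06 with guide 2 (adjusted p = 4.29e-08) and -0.86 ± 0.06 with guide 1 (adjusted p = 3.96e-12), and the direct difference of 0.32 ± 0.06 between the guides also passed the test (adjusted p = 4.33e-05). MT-RNR2 (positions 1671 to 3229) was at 15617, 16062 and 14899 CPM in shScramble, 10211, 11881 and 10161 with guide 2 and 9954, 9887 and 10480 in the libraries labelled guide 1. Both shMETTL3 groups lay below shScramble and overlapped with each other. MT-RNR2 changed by -0.53 ± 0.06 with guide 2 (adjusted p = 4.12e-08) and by -0.62 ± 0.06 with guide 1 (adjusted p = 1.25e-09), and the guides differed by 0.09 ± 0.06 (adjusted p = 0.202). The ratio of MT-RNR1 to MT-RNR2 counts was 14.5% to 15.6% in shScramble, 14.5% to 15.8% with guide 2 and 12.3% to 13.5% in the libraries labelled guide 1, where it lay below all other libraries.

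Of the 13 protein genes, 9 were lower with guide 2 at an adjusted p under 0.05, of which MT-ND1 and MT-CYB also reached the fold limit, and 0 were higher. The median of the 13 was -0.31, against -0.04 over all genes tested. Lower at an adjusted p under 0.05 were 31.7% of all genes tested in this comparison, and 20.4% were lower and called. The share of called mRNAs was thus near that of all genes. In the libraries labelled guide 1, MT-CO3 and MT-ND3 were the 2 protein genes that were lower at an adjusted p under 0.05, where 33% of all genes tested were, and 0 of the 13 were called, where 16.5% of all genes were lower and called. The median of the 13 was -0.13 there, against -0.02 over all genes. These counts moved with single libraries, since leaving out guide 1 replicate 2 brought the count with guide 2 from 9 to 5, and leaving out guide 2 replicate 2 brought the count with guide 1 from 2 to 5.

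Library numbers in the headers of the deposited tables fell into 2 sets, under 10 and over 10, and all 3 guide 2 libraries were in the first set together with shScramble replicate 3 and guide 1 replicate 1. What these numbers stand for is not stated. The split was looked for after MT-ATP8 had been seen to follow it, and it was then added to the model as a term. Between the sets, 188 of 19278 genes differed at an adjusted p under 0.05, and 11 of these by at least 1.5-fold. MT-ATP8 was the only mitochondrial gene among the 188. The share of counts on all 37 mitochondrial genes was lowest in the library of the first set within shScramble (replicate 3, 5.96%) and within guide 1 (replicate 1, 5.08%). The part of the set in the lower share with guide 2 was not tested. With the set as a term, 5 rather than 9 protein genes were lower with guide 2 at an adjusted p under 0.05, and values with this term are given beside the mitochondrial genes whose call or side of the adjusted p it changed.

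The complex I genes, whose proteins form the proton-pumping arm of NADH dehydrogenase, were led by MT-ND1. MT-ND1 (positions 3307 to 4262) was at 2657, 2694 and 2249 CPM in shScramble, 1380, 1839 and 1370 with guide 2 and 2018, 2393 and 2666 in the libraries labelled guide 1. Every guide 2 library lay below every other library. MT-ND1 changed by -0.73 ± 0.16 with guide 2 (adjusted p = 0.00647) and by -0.10 ± 0.16 with guide 1 (adjusted p = 0.592), and the direct difference of guide 2 from guide 1 was -0.62 ± 0.16 (adjusted p = 0.00982). With the library number set as a term, the MT-ND1 change with guide 2 was -0.53 (adjusted p = 0.0228) and the direct difference -0.42 (adjusted p = 0.0418), both under the fold limit.

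MT-ND2 (positions 4470 to 5511) was at 2462, 2520 and 2330 CPM in shScramble, 1771, 2258 and 1759 with guide 2 and 2004, 2083 and 2369 in the libraries labelled guide 1. Its guide 2 libraries lay below shScramble, by -0.34 ± 0.09 (adjusted p = 0.00773), but not once the set was a term (-0.25, adjusted p = 0.0995). MT-ND3 (positions 10059 to 10404) was at 1205, 1397 and 1264 CPM, at 1115, 1125 and 968 and at 1108, 912 and 986 in the same order of groups. It is one of the 2 mRNAs that were lower in both shMETTL3 groups, by -0.27 ± 0.07 with guide 2 (adjusted p = 0.00534) and by -0.36 ± 0.07 with guide 1 (adjusted p = 0.000408). The difference between the guides did not pass the test (0.09 ± 0.07, adjusted p = 0.267).

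MT-ND4L and MT-ND4 share 7 bases and are read from a single mRNA. MT-ND4L (positions 10470 to 10766) was at 1483, 1349 and 1184 CPM in shScramble, 973, 1301 and 974 with guide 2 and 1043, 1321 and 1301 in the libraries labelled guide 1. MT-ND4 (positions 10760 to 12137) was at 4949, 4830 and 4505 CPM, at 3561, 4710 and 3367 and at 4147, 4363 and 4625. In both genes, guide 2 replicate 2 lay within the shScramble range and the other two guide 2 libraries lay below it. Their changes with guide 2 were -0.31 ± 0.16 for MT-ND4L (adjusted p = 0.141) and -0.30 ± 0.11 for MT-ND4 (adjusted p = 0.0437), and with the set as a term MT-ND4 no longer passed (-0.22, adjusted p = 0.272). It also lost the adjusted p in 8 of the 9 fits that leave out 1 library (adjusted p up to 0.130). Without guide 2 replicate 2 the change of MT-ND4L was -0.46 and passed the test (adjusted p = 0.0117).

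MT-ND5 (positions 12337 to 14148) was at 2185, 2125 and 1916 CPM in shScramble, 1701, 2386 and 1523 with guide 2 and 1923, 1998 and 1672 in the libraries labelled guide 1. Guide 2 replicate 2 was the highest of all 9 libraries for this gene, so the groups overlapped and no difference was called, with -0.15 ± 0.17 for guide 2 (adjusted p = 0.493) and -0.16 ± 0.17 for guide 1 (adjusted p = 0.465). Without guide 2 replicate 2 the guide 2 value was -0.36 and passed the test (adjusted p = 0.000278). MT-ND6 (positions 14149 to 14673), transcribed from the opposite strand, was at 568, 597 and 560 CPM, at 477, 646 and 330 and at 613, 478 and 372. Its spread within the shMETTL3 groups was wide, and neither the value with guide 2 (-0.25 ± 0.28, adjusted p = 0.482) nor that with guide 1 (-0.24 ± 0.28, adjusted p = 0.483) passed.

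MT-CYB, which encodes cytochrome b of complex III, had the same order of groups as MT-ND1. MT-CYB (positions 14747 to 15887) was at 2877, 2944 and 2569 CPM in shScramble, 1643, 2109 and 1629 with guide 2 and 2317, 2745 and 2996 in the libraries labelled guide 1. All guide 2 libraries lay below all others, while the other groups overlapped. The change of MT-CYB was -0.64 ± 0.13 with guide 2 (adjusted p = 0.00338) and -0.06 ± 0.13 with guide 1 (adjusted p = 0.714), and the direct difference was -0.58 ± 0.13 (adjusted p = 0.00406). With the set as a term, the value with guide 2 was -0.48 (adjusted p = 0.00725), under the fold limit.

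**Figure D2:**
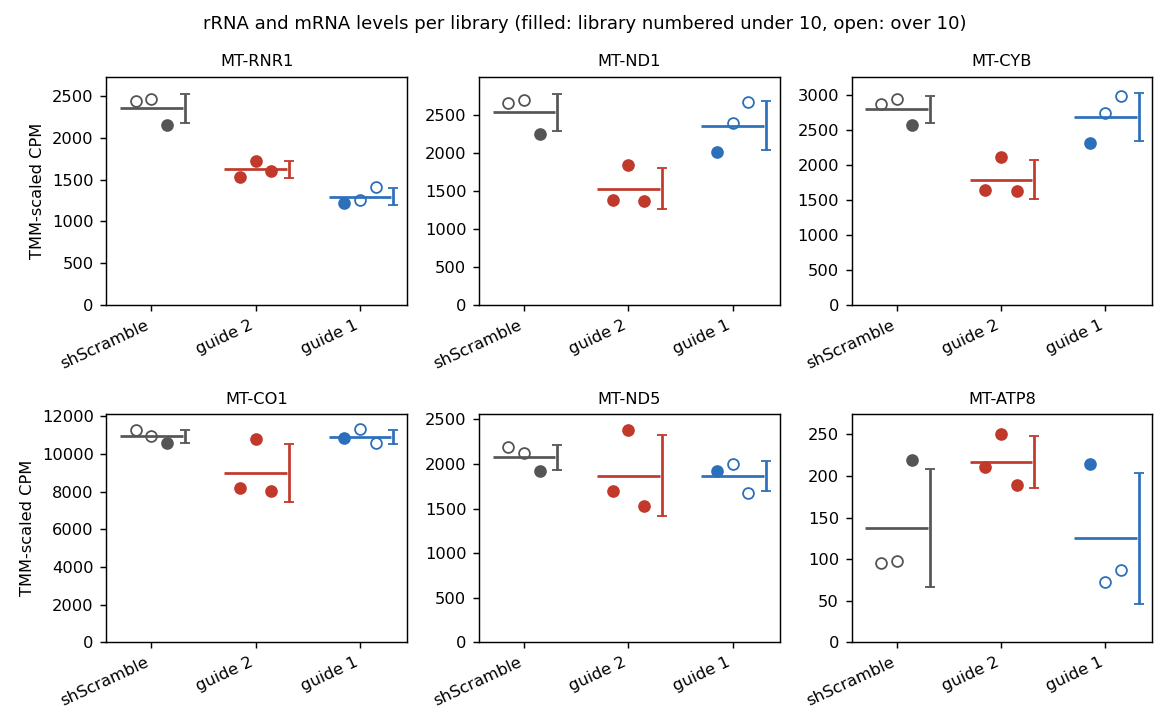
TMM-scaled CPM (y axes from 0) of MT-RNR1, MT-ND1, MT-CYB, MT-CO1, MT-ND5 and MT-ATP8 in each library, with the mean (line) and SD (bar) of each group of 3. Filled points are libraries whose number in the deposited table is under 10 and open points those over 10: MT-ND1 and MT-CYB were lowest in the guide 2 libraries, MT-RNR1 was low in both shMETTL3 groups, and MT-ATP8 followed the library numbers.

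The complex IV genes encode the catalytic core of cytochrome c oxidase. MT-CO1 (positions 5904 to 7445) was at 11256, 10977 and 10575 CPM in shScramble, 8180, 10795 and 8018 with guide 2 and 10841, 11333 and 10569 in the libraries labelled guide 1. Guide 2 replicate 2 lay among the other groups, and the change with guide 2 was -0.28 ± 0.09 (adjusted p = 0.0104), or -0.25 with the set as a term (adjusted p = 0.0940). MT-CO2 (positions 7586 to 8269) was at 3702, 3905 and 3755 CPM, at 2638, 3389 and 2686 and at 3911, 3805 and 4090. Every guide 2 library lay below every other, with a change of -0.38 ± 0.07 (adjusted p = 0.000129), against 0.06 ± 0.07 with guide 1 (adjusted p = 0.513) and a direct difference of -0.44 ± 0.07 (adjusted p = 1.65e-05).

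MT-CO3 (positions 9207 to 9990) was the other mRNA lower in both groups. It was at 5583, 5067 and 5408 CPM in shScramble, 3571, 4315 and 3547 with guide 2 and 4777, 4308 and 4879 in the libraries labelled guide 1. Both shMETTL3 groups lay below shScramble, by -0.49 ± 0.07 with guide 2 (adjusted p = 1.56e-06) and by -0.20 ± 0.07 with guide 1 (adjusted p = 0.0123). The guide 1 value lost the test without shScramble replicate 1 (adjusted p = 0.0564) or without guide 1 replicate 2 (adjusted p = 0.0697).

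MT-ATP6 and MT-ATP8 encode subunits of the membrane part of ATP synthase. Their reading frames overlap by 46 bases, at MT positions 8527 to 8572. The stretch is shown here because a read there lies in both genes, and to which of them it was counted, if to any, is not stated. Capitals mark the start codon of MT-ATP6 and the stop codon of MT-ATP8.
MT-ATP8 and MT-ATP6 overlap: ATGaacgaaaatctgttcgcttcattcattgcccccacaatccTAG
The overlap is 22.2% of MT-ATP8, the shortest of the protein genes at 207 bases, and 6.75% of MT-ATP6. MT-ATP6 was at 3610, 3732 and 3265 CPM in shScramble, 2677, 3431 and 2433 with guide 2 and 3117, 3126 and 3362 in the libraries labelled guide 1. It changed by -0.31 ± 0.11 with guide 2 (adjusted p = 0.0388), with an overlap of the groups through guide 2 replicate 2, and it did not pass with the set as a term (-0.24, adjusted p = 0.249) or in 7 of the 9 fits that leave out 1 library (adjusted p up to 0.118).

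MT-ATP8 was the exception among the protein genes. It was at 94.7, 97.2 and 219 CPM in shScramble, 211, 251 and 189 with guide 2 and 215, 72.0 and 87.4 in the libraries labelled guide 1. The 5 libraries numbered under 10 lay between 189 and 251 CPM and the 4 others between 72.0 and 97.2. This held within shScramble and within the libraries labelled guide 1, whereas every guide 2 library was numbered under 10. The MT-ATP8 mean was higher with guide 2, but the value of 0.67 ± 0.53 did not pass the test (adjusted p = 0.31), and with the set as a term it was -0.09 (adjusted p = 0.660). The difference between the sets was 1.31 ± 0.14. The split was looked for because MT-ATP8 followed it, so the adjusted p of 0.0322 for this difference is no support for the split. As a share of MT-ATP6 counts, MT-ATP8 made up 6.72% to 7.87% in the libraries numbered under 10 and 2.304% to 2.62% in the others.

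Counts on the tRNA genes were low, as is usual for RNAs shorter than most library fragments. MT-TN, MT-TC, MT-TP, MT-TL1 and MT-TY together held at least 84.0% of the tRNA counts of each library, and each of the remaining 17 genes had 0 to 458 counts in a library. Reads here may come from precursors as well as from tRNAs, and where a read spans a tRNA and its neighbour, or where strand was not used in the counting, it cannot be told which gene it belongs to. Of the 14 tRNA genes that passed the filter in every group, 10 were called lower and 0 higher with guide 2, and 6 were called lower and 0 higher in the libraries labelled guide 1, where 20.4% and 16.5% of all genes tested were called lower. With the library number set as a term these were 7 and 6.

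MT-TN, MT-TC and MT-TY were lower with guide 2 and not in the libraries labelled guide 1. MT-TN was at 120, 121 and 106 CPM in shScramble, 56.4, 65.0 and 65.2 with guide 2 and 120, 120 and 118 in the libraries labelled guide 1, and MT-TC was at 98.1, 90.2 and 88.1 CPM, at 34.9, 50.6 and 43.2 and at 106, 92.2 and 101. MT-TY was at 11.3, 13.3 and 13.8 CPM, at 4.07, 7.65 and 3.81 and at 14.4, 11.3 and 12.2. For all 3 genes every guide 2 library lay below every other library, and the other groups overlapped. The changes with guide 2 were -0.90 ± 0.06 for MT-TN (adjusted p = 3.30e-13), -1.10 ± 0.12 for MT-TC (adjusted p = 6.10e-05) and -1.28 ± 0.23 for MT-TY (adjusted p = 0.000708). With guide 1 they were 0.04 ± 0.05, 0.11 ± 0.11 and -0.02 ± 0.20 (adjusted p = 0.508, 0.402 and 0.949). The direct differences of guide 2 from guide 1 were -0.94, -1.21 and -1.27 (adjusted p = 2.30e-14, 1.80e-05 and 0.000512). The sequences of these genes are those printed above. Their neighbour on the same strand, MT-TA (positions 5587 to 5655), was by contrast lower in both groups, by -2.02 ± 0.37 and -1.56 ± 0.33. It had 4 to 39 counts in a library and reached the filter level in shScramble only, so its values are a description.

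MT-TP showed the other order. It was at 43.2, 40.1 and 34.2 CPM in shScramble, 39.5, 47.2 and 40.2 with guide 2 and 22.3, 21.6 and 23.0 in the libraries labelled guide 1. The guide 1 libraries lay below all others, and the guide 2 and shScramble libraries overlapped. The change of MT-TP was -0.82 ± 0.08 with guide 1 (adjusted p = 3.08e-09) and 0.11 ± 0.08 with guide 2 (adjusted p = 0.235), a value that became -0.04 when libraries were scaled by their size alone and 0.22 with the set as a term (adjusted p = 0.0350). The direct difference was 0.92 ± 0.08 (adjusted p = 2.89e-10). Expressed as a percentage of MT-TN counts, MT-TP was at 32.3% to 36.001% in shScramble, 61.6% to 72.7% with guide 2 and 18.1% to 19.5% in the libraries labelled guide 1, so this ratio of a pair of minus-strand tRNA genes separated all 3 groups.

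**Figure D3:**
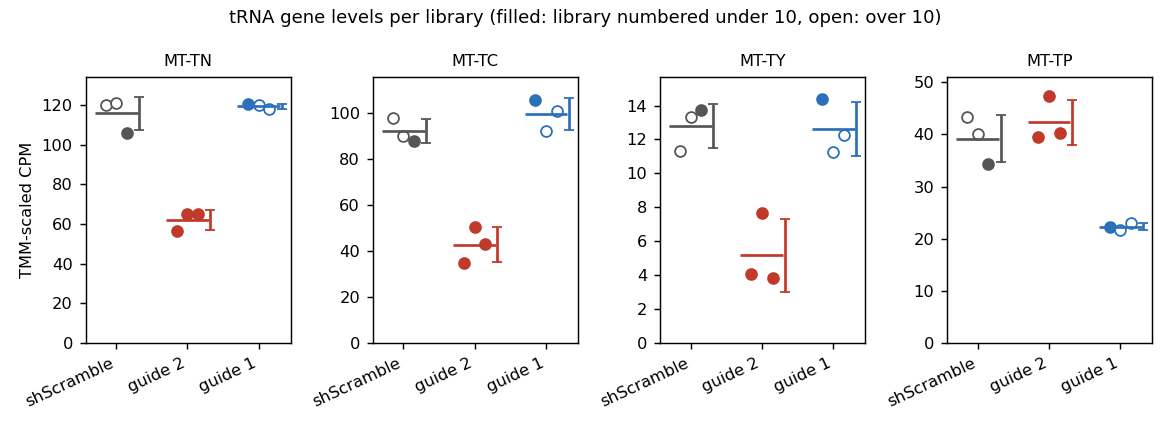
TMM-scaled CPM (y axes from 0) of MT-TN, MT-TC, MT-TY and MT-TP in each library, with the mean (line) and SD (bar) of each group of 3 and with filled points for libraries numbered under 10. MT-TN, MT-TC and MT-TY were low in the guide 2 libraries, and MT-TP was low in the libraries labelled guide 1.

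Several tRNA genes of the plus strand were low in both groups. MT-TV, for valine, lies between the rRNA genes and was at 6.05, 6.22 and 3.99 CPM in shScramble, 1.56, 3.07 and 1.77 with guide 2 and 1.58, 2.81 and 2.74 in the libraries labelled guide 1. Both shMETTL3 groups lay below shScramble, by -1.35 ± 0.25 (adjusted p = 0.000187) and by -1.20 ± 0.24 (adjusted p = 0.000259). MT-TI, for isoleucine, changed by -1.30 ± 0.33 and -0.97 ± 0.30 (adjusted p = 0.00128 and 0.00599), on 15 to 77 counts, and MT-TE, for glutamate and on the minus strand, by -0.77 ± 0.25 and -0.94 ± 0.24 (adjusted p = 0.00906 and 0.00136), on 20 to 80 counts. The guide 1 value of MT-TI lost the test without shScramble replicate 2 (adjusted p = 0.0536), and the guide 2 value of MT-TE without guide 2 replicate 1 (adjusted p = 0.0834).

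The remaining called genes that passed the filter in every group met both limits in 1 of the comparisons with shScramble. MT-TL1 (leucine, UUR codons), directly after MT-RNR2, was at 23.3, 23.8 and 18.9 CPM in shScramble, 8.84, 16.4 and 12.01 with guide 2 and 14.4, 18.7 and 20.04 in the libraries labelled guide 1. Its change with guide 2 was -0.82 ± 0.23 (adjusted p = 0.0185), or -0.56 with the set as a term (adjusted p = 0.0806). MT-TG (glycine), MT-TR (arginine) and MT-TM (methionine) were also called with guide 2, at -1.03, -0.84 and -0.61 (adjusted p = 0.00017, 0.00114 and 0.0376), and the guide 2 libraries of MT-TM overlapped with shScramble. With the set as a term, MT-TR was at -0.56 (adjusted p = 0.0492), under the fold limit, and MT-TM at -0.33 (adjusted p = 0.336). MT-TG and MT-TR were also lower with guide 1 at the adjusted p, below the fold limit (-0.50 and -0.54, adjusted p = 0.0257 and 0.0169), although MT-TG lost this in 4 and MT-TR in 2 of the 9 fits that leave out 1 library, and the difference of MT-TR between the guides did not pass (-0.30 ± 0.22, adjusted p = 0.215). MT-TS2 (serine, AGY codons) and MT-TL2 (leucine, CUN codons), which follow MT-ND4, were called with guide 1, at -0.62 and -0.88 (adjusted p = 0.0252 and 0.00191), while MT-TH (histidine), on the same stretch, was not called (-0.55, adjusted p = 0.161). The call of MT-TS2 was lost without shScramble replicate 1 (adjusted p = 0.200) or guide 1 replicate 2 (adjusted p = 0.111), and MT-TM was lost without any of shScramble replicates 2 and 3 and guide 2 replicates 1 and 3 (adjusted p up to 0.226). MT-TL1 lost its adjusted p without shScramble replicate 1 or 2 or guide 2 replicate 3, with adjusted p up to 0.0634.

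The other 7 tested tRNA genes, MT-TQ, MT-TW, MT-TA, MT-TS1, MT-TD, MT-TK and MT-TT, had 0 to 66 counts in a library and reached the filter level in shScramble and at most 1 shMETTL3 group. Since they passed through a group where they were high, their values are given as a description. With guide 2 they ranged from -2.59 ± 0.58 for MT-TW, with 26, 22 and 13 counts in shScramble and 6, 2 and 0 with guide 2, to -0.43 ± 0.44 for MT-TS1. With guide 1 they ranged from -1.56 ± 0.33 for MT-TA to -0.28 ± 0.41 for MT-TS1. MT-TD, for aspartate, was at 1.59, 2.07 and 2.15 CPM in shScramble, 0.607, 0.758 and 0.363 with guide 2 and 1.30, 1.30 and 1.47 in the libraries labelled guide 1.

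**Figure D4:**
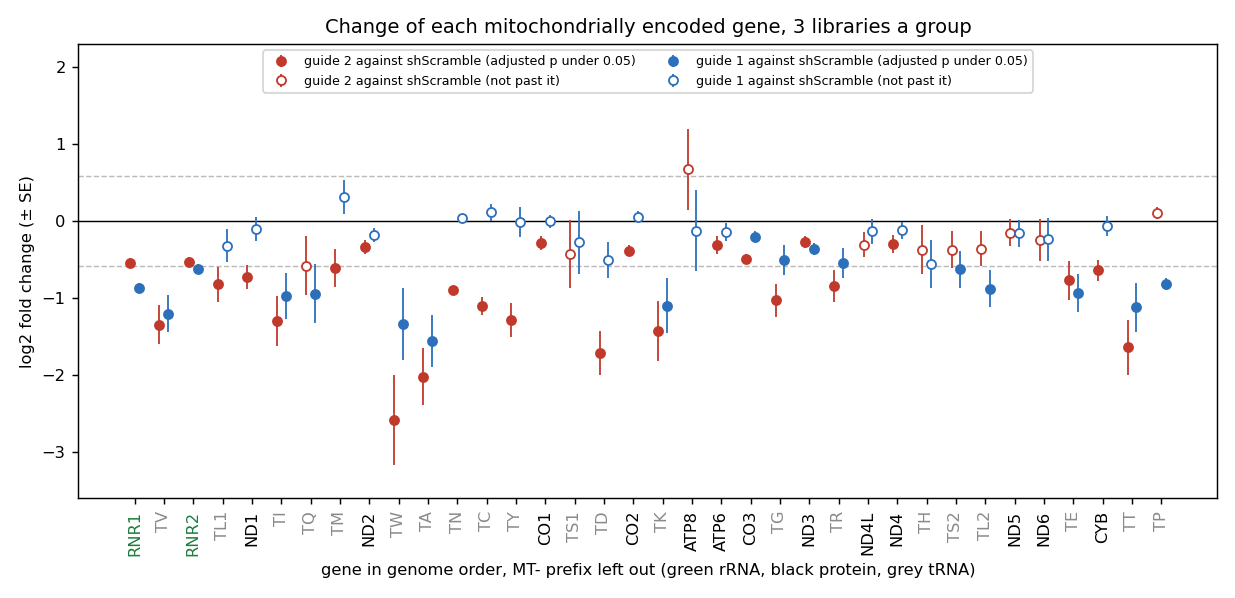
log2 fold change against shScramble (y axis, with SE bars) of the 36 tested mitochondrial genes in genome order, for guide 2 (red) and guide 1 (blue), with filled points where the adjusted p was under 0.05 and dashed lines at 1.5-fold. The rRNA genes and several tRNA genes lay below 0 for both guides, MT-TN, MT-TC and MT-TY for guide 2 and MT-TP for guide 1, and MT-ATP8 alone lay well above 0 with guide 2, with a wide error.

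In the direct comparison of the guides, 12 mitochondrial genes outside the 7 of restricted filtering passed an adjusted p under 0.05. Lower with guide 2 were MT-ND1, MT-CO1, MT-CO2, MT-CO3, MT-CYB, MT-TM, MT-TN, MT-TC, MT-TY and MT-TG, and higher were MT-RNR1 and MT-TP. With the set as a term, MT-CO1 (-0.25, adjusted p = 0.0799) and MT-TG (-0.38, adjusted p = 0.198) no longer passed. Over all genes tested, 39.9% were lower and 34.7% higher at an adjusted p under 0.05, and 28.2% and 19.1% were called, so a difference between the guides was common among all genes. Without guide 2 replicate 2, the number of protein genes past the adjusted p in this comparison rose from 5 to 10.

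To set the genes against each other, the fit was repeated with the mitochondrial count total of each library as its size. The mRNAs hold 69.5% to 76.9% of this total on average in the 3 groups, so a typical mRNA lies near 0 on this scale by construction, and MT-RNR2 likewise moves its own denominator. The protein genes ranged from -0.32 for MT-ND1 to 1.054 for MT-ATP8 with guide 2 and from -0.12 for MT-ND3 to 0.29 with guide 1. MT-ND1 with guide 2 (-0.32 ± 0.13, adjusted p = 0.025) was the only one of the 13 past the adjusted p against shScramble, where 13.7% of all genes tested were lower with guide 2 on this scale and 14.9% with guide 1. The fit shares its estimate of spread with the nuclear genes, which on this scale move with the mitochondrial total. MT-ND1, MT-CYB and MT-CO2 all had an SE of 0.13, so a gene could fail the test without overlap. MT-CYB did so at 4.68% ± 0.165 of mitochondrial counts in shScramble and 3.98% ± 0.0499 with guide 2. So did MT-CO2 at 6.34% ± 0.257 in shScramble and 7.76% ± 0.184 with guide 1. Between the guides, MT-ND1 and MT-CYB were lower with guide 2, by -0.45 and -0.41 (adjusted p = 0.00112 and 0.00358), and MT-ND3 was higher, by 0.28 (adjusted p = 0.0481).

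The rRNAs were lower relative to this total in the libraries labelled guide 1, by -0.62 ± 0.13 for MT-RNR1 (adjusted p = 6.98e-06) and by -0.38 ± 0.14 for MT-RNR2 (adjusted p = 0.0123), while with guide 2 they were at -0.12 ± 0.13 and -0.11 ± 0.14 (adjusted p = 0.441 and 0.479). MT-TN, MT-TC and MT-TY were at -0.47, -0.69 and -0.91 with guide 2 (adjusted p = 0.000246, 6.47e-08 and 3.34e-08) and at 0.28, 0.35 and 0.22 with guide 1 (adjusted p = 0.0334, 0.00697 and 0.183). MT-TP was at 0.53 with guide 2 (adjusted p = 6.75e-05) and at -0.57 with guide 1 (adjusted p = 1.96e-05). MT-TV was at -0.95 and -0.96 in the comparisons of guide 2 and guide 1 (adjusted p = 1.63e-05 and 5.73e-06), and MT-TI at -0.88 and -0.74 (adjusted p = 0.00767 and 0.0185).

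Copies of mitochondrial genes in the nuclear genome can take reads from the mitochondrial ones. By symbol there were 391 such pseudogenes, of which 142 had at least 1 count and 13 passed the filter, and MTATP6P1, MTND2P28 and MTCO1P12 held 95.6% of their counts. These 3 lie together on chromosome 1, at positions 633696 to 634376, 629640 to 630683 and 631074 to 632616, and are 98.5%, 98.2% and 98.6% identical to MT-ATP6, MT-ND2 and MT-CO1, with identical stretches of up to 141, 266 and 245 bases. The 60-base window in which MTATP6P1 differs most from MT-ATP6, at MT positions 8642 to 8701 and chromosome 1 positions 633811 to 633870, is shown because it marks how little separates the copies, with capitals at the bases that differ.
MT-ATP6: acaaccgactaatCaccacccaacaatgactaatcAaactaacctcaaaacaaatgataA
MTATP6P1: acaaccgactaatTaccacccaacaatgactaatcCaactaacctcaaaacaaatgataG
MTATP6P1 had 6729, 6656 and 4743 counts in shScramble, 4952, 6158 and 4101 with guide 2 and 5651, 5713 and 5770 in the libraries labelled guide 1, and it did not pass the test in either comparison (0.03 ± 0.07, adjusted p = 0.774, and -0.09 ± 0.07, adjusted p = 0.307). As a percentage of MT-ATP6 counts it made up 5.5997% to 6.36% in shScramble, 7.16% to 8.02% with guide 2 and 5.74% to 6.58% in the libraries labelled guide 1. MTND2P28 had 3.54% to 4.71% of the MT-ND2 counts over the 9 libraries and MTCO1P12 0.184% to 0.287% of the MT-CO1 counts, without a test passed against shScramble (adjusted p of 0.180 and 0.659 with guide 2). How reads that match several genes were counted is not stated. The error this brings to the levels of MT-ATP6, MT-ND2 and MT-CO1 is therefore not known, and these shares do not bound it.

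The nuclear genes that make and use these RNAs were taken from lists. Of 32 tested genes of mitochondrial DNA maintenance and transcription, 21 were higher and 6 lower with guide 2 at an adjusted p under 0.05, where 30% and 31.7% of all genes tested were, and the list's median was 0.21. In the libraries labelled guide 1 these were 13 and 10, where 35.4% and 33% of all genes were, with a median of -0.0015. With the set as a term, 17 were higher and 6 lower with guide 2. POLRMT, the mitochondrial RNA polymerase, was at 88.0 ± 2.20 CPM in shScramble, 111 ± 4.47 with guide 2 and 107 ± 4.74 in the libraries labelled guide 1, higher by 0.34 ± 0.05 and 0.28 ± 0.05 (adjusted p = 7.80e-07 and 7.82e-06). TFAM, which packages the mitochondrial DNA and starts its transcription, was higher by 0.30 and 0.27 (adjusted p = 1.83e-05 and 4.53e-05). TFB2M, the transcription factor that opens the promoter, was higher with guide 2 (0.22, adjusted p = 0.00305) and lower with guide 1 (-0.38, adjusted p = 3.93e-06). POLRMT and TFAM thus rose in both groups in which the mitochondrial share was lower, while TFB2M rose in one and fell in the other.

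Among the called genes of that list, TWNK, the replicative helicase, was at 27.1 ± 0.260 CPM in shScramble, 41.9 ± 0.477 with guide 2 and 43.0 ± 1.19 in the libraries labelled guide 1 (0.63 and 0.67, adjusted p = 3.14e-10 and 3.14e-11). TYMP, thymidine phosphorylase, was at 81.5 ± 3.64, 45.5 ± 1.496 and 45.7 ± 3.59 CPM (-0.84 in both comparisons, adjusted p = 8.88e-13 and 2.55e-13). SLC25A36, a carrier of pyrimidine nucleotides, fell with guide 2 (-0.81, adjusted p = 4.62e-15) and, below the fold limit, with guide 1 (-0.27, adjusted p = 2.09e-06), with a direct difference of -0.54 ± 0.04 (adjusted p = 5.10e-12), and ATAD3A, a nucleoid-associated membrane protein, rose by 0.59 and 0.22 (adjusted p = 7.17e-11 and 0.000332). TWNK and TYMP were thus called in both shMETTL3 groups.

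Of 27 tested genes of mitochondrial RNA processing and turnover, 16 were higher and 1 lower with guide 2, where 30% and 31.7% of all genes tested were, and 7 were higher and 10 lower in the libraries labelled guide 1, where 35.4% and 33% were. The medians were 0.28 and -0.03. LRPPRC, which stabilises mitochondrial mRNAs, was at 369 ± 6.34 CPM in shScramble and 375 ± 10.1 with guide 2 (0.02 ± 0.05, adjusted p = 0.694), and was slightly lower with guide 1 (-0.11 ± 0.05, adjusted p = 0.0341). TBRG4 and FASTKD1, of a family of RNA-binding proteins of the mitochondrion, were higher with guide 2 by 0.73 and 0.72 (adjusted p = 2.19e-13 and 2.51e-10). TRMT10C, a subunit of the enzyme that cuts the 5′ ends of the tRNAs, was higher by 0.61 (adjusted p = 7.24e-08, and 0.45 with the set as a term), and CLUH, which binds nuclear mRNAs of mitochondrial proteins, by 0.59 (adjusted p = 5.26e-11). With guide 1 the values of TBRG4, FASTKD1 and TRMT10C were 0.03, 0.15 and 0.11 and did not pass (adjusted p = 0.614, 0.053 and 0.183; FASTKD1 passed with the set as a term, at 0.0395), and CLUH was lower (-0.25, adjusted p = 6.26e-05).

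Of 30 tested genes that modify mitochondrial rRNA and tRNA, 18 were higher and 3 lower with guide 2, where 30% and 31.7% of all genes were, and 17 and 3 in the libraries labelled guide 1, where 35.4% and 33% were, with medians of 0.34 and 0.26. METTL8, which methylates cytidines of mitochondrial tRNAs, was higher in both, by 0.62 and 0.68 (adjusted p = 4.55e-09 and 2.96e-10), as was the pseudouridine synthase PUS1, by 0.59 and 0.57 (adjusted p = 1.08e-08 and 9.27e-09; 0.50 with guide 2 once the set was a term). The related enzyme RPUSD2 was higher with guide 2 (0.83, adjusted p = 3.59e-10) and was at 0.15 with guide 1 (adjusted p = 0.0972). This was the list with the most like medians in the 2 comparisons, which share their controls.

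Most nuclear subunits of the same respiratory complexes were higher with guide 2. Of 37 nuclear complex I genes, 25 were higher and 4 lower at an adjusted p under 0.05 (median 0.32), where 30% and 31.7% of all genes tested were. For complex III these were 8 and 0 of 9 (median 0.44), for complex IV 8 and 0 of 11 (median 0.50), and for complex V 14 and 0 of 18 (median 0.40). Called higher were 4, 2, 3 and 2 genes of the respective lists, where 8.85% of all genes tested were. In the libraries labelled guide 1, by contrast, the medians were -0.20, -0.17, -0.41 and -0.28, with 17, 6, 9 and 9 genes lower and 3, 0, 1 and 2 higher, where 33% and 35.4% of all genes were. With the library number set as a term, the guide 2 medians were 0.21, 0.49, 0.38 and 0.32 and the numbers higher were 20, 8, 8 and 13. Nuclear genes of at least 500 CPM, a level like that of the mitochondrial mRNAs, had a median of 0.21 with guide 2 over 203 genes, of which 118 were higher and 20 lower at the adjusted p, and a median of -0.06 with guide 1, with 65 higher and 79 lower.

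COX6B1, a complex IV subunit facing the intermembrane space, was at 73.4 ± 3.68 CPM in shScramble, 185 ± 14.3 with guide 2 and 67.7 ± 5.59 in the libraries labelled guide 1, and COX4I1, the largest nuclear subunit of the complex, was at 241 ± 10.4, 484 ± 15.9 and 304 ± 29.0. They were higher with guide 2 by 1.33 ± 0.06 and 1.01 ± 0.06 (adjusted p = 1.64e-14 and 5.48e-14). COX7A2 followed at 0.67 (adjusted p = 0.00574, and 0.47 with the set as a term), UQCR10 and UQCRC2 of complex III at 0.88 and 0.63 (adjusted p = 0.000404 and 5.47e-12), ATP5MC1 and ATP5MC3, genes of the c subunit of ATP synthase, at 0.92 and 0.88 (adjusted p = 1.75e-13 and 3.39e-14), and NDUFB3 of complex I at 0.83 (adjusted p = 3.07e-05). The complex I genes with the largest fall, NDUFV2 and NDUFA7, were read at very low levels (4.58 and 1.10 CPM in shScramble, 1.32 and 0.554 with guide 2; -1.77 and -0.999, adjusted p = 1.03e-07 and 0.0125, the latter not passing with the set as a term at adjusted p = 0.0862). With guide 2 the nuclear medians thus lay above 0 in all 4 complexes, whereas 12 of the 13 mitochondrial protein genes had values below 0. In the libraries labelled guide 1 the nuclear medians lay below 0, as did 12 of the 13 mitochondrial values. Only 2 of these mitochondrial values passed the adjusted p, and those of MT-CO1, MT-CYB, MT-ND1 and MT-ATP8 changed sign in fits that leave out 1 library.

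**Figure D5:**
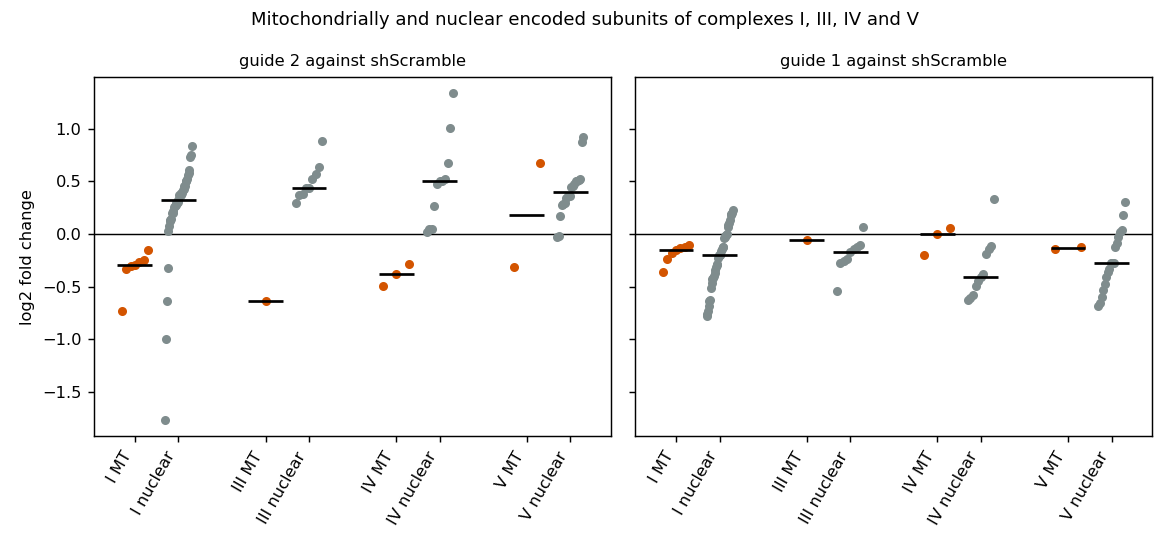
log2 fold change against shScramble (y axis) of each mitochondrially encoded (orange) and nuclear encoded (grey) subunit of complexes I, III, IV and V, with the median of each set as a line, for guide 2 (left) and guide 1 (right). With guide 2 the nuclear medians were 0.32, 0.44, 0.50 and 0.40 while the mitochondrial subunits other than MT-ATP8 lay below 0, and with guide 1 the nuclear medians were -0.20, -0.17, -0.41 and -0.28.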

How the data were processed

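RNA-seq of LNCaP:C4-2 cells was analysed in 9 libraries (3 groups of 3), with groups and replicate numbers taken from the labels. After trimming, the authors used STAR with GRCh38 as the reference, and featureCounts for assignment to Ensembl genes, with Trim Galore, cutadapt and FastQC also listed in the submitters' processing notes. The authors deposited the raw count of each gene and library, with no normalization or pooling. Strand setting, treatment of reads matching several genes, and whether libraries were made by poly(A) selection or rRNA depletion are not given in the sources used here, and each could change the level of rRNA, tRNA and minus-strand genes. The RNA kit in the labels differs from that in the paper's methods.

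All else was computed from the counts. There were 0 rows without a gene and 0 unmapped columns. Start, end and strand of 37 of 37 mitochondrial genes equalled GENCODE release 44, and sequences were read from hg38, whose mitochondrial chromosome has 16569 bases. Libraries were scaled with TMM, genes were filtered with filterByExpr (minimum count 10, minimum total 15) and tested with edgeR 4.0.16 (R 4.3.3) by glmQLFit with robust estimation and glmQLFTest, over all 9 libraries with no covariates. Errors of log2 fold changes are SE, other errors SD over 3 libraries, and CPM are TMM-scaled. Intervals cover counting error only, and reads without molecular identifiers are not independent molecules. On simulated counts for guide 2 against shScramble (18729 genes tested), 64 of 64 genes changed 2-fold with a mean of at least 50 counts were recovered and 13 of 24 below that, with 2 false calls. The simulation gave all genes the same spread between libraries and changed few genes, in the guide 2 group only. It therefore does not give the recovery of genes with a wide spread, such as MT-ATP8 (SE 0.53 with guide 2), or the false calls in these data.

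All protein and rRNA genes were named, the tRNA genes that passed the filter, POLRMT, TFAM, TFB2M and LRPPRC, the 3 pseudogenes with the highest level, and of each list at most 4 genes called with guide 2 with the largest change and no overlap. Some genes that this rule names are not reported here. The members and lists were chosen with earlier results of these data known. Alternatives were DESeq2 1.42.0, its size factors, library size alone, nuclear counts as library size with or without TMM, no filter, a mean of at least 1 CPM, the adjusted p alone, glmTreat, a fit of the 6 libraries of a comparison, leaving out single libraries, a block on replicate number, and, added after seeing the data, the library number set as a term.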

Additional observations from a re-analysis of the deposited data

Results flagged for a closer look

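The effects of the pair of shRNAs against METTL3 differed in a direct test, by at least 1.5-fold and at an adjusted p under 0.05 (edgeR's quasi-likelihood test), for 7 mitochondrial genes, where 28.2% of all genes tested were called lower and 19.1% higher with guide 2 than with guide 1. Lower with guide 2 than in the libraries labelled guide 1 were MT-ND1 (log2 difference -0.62), MT-TM (-0.92), MT-TN (-0.94), MT-TC (-1.21), MT-TY (-1.27) and MT-TD (-1.21), and MT-TP was higher (0.92). MT-TD reached the filter level in shScramble and guide 1 only, so its value is a description and 6 genes remain without it, and the guides overlapped for MT-TM. METTL3 RNA was lower with guide 2 and not in the libraries labelled guide 1, so the 2 shRNA groups also differ in the check of their labels, and the part of this in the differences was not tested. With the library number set as a term, the difference of MT-ND1 was -0.42 (adjusted p = 0.0418) and under the fold limit, that of MT-TM was -0.65, and those of MT-TN, MT-TC, MT-TY and MT-TP were -0.89, -1.23, -1.41 and 1.03.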

How the results depend on the processing

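With guide 2, both rRNAs, MT-CO2, MT-CO3, MT-ND1, MT-CYB, MT-TN, MT-TC and MT-TY stayed lower at an adjusted p under 0.05 in every recomputed value. With guide 1, so did both rRNAs and MT-TP. These values were recomputed relative to the library, and glmTreat was run for counts of calls only. Relative to the mitochondrial total, MT-RNR1, MT-RNR2, MT-CO2, MT-CO3 and MT-CYB did not pass with guide 2 (adjusted p = 0.441, 0.479, 0.876, 0.622 and 0.114). MT-CO2 was at 0.03 on that scale, where the estimate of spread is shared with the nuclear genes. Scaling by library size alone moved the median of all genes with guide 2 from -0.04 to -0.19, and fold changes of mitochondrial genes moved with it. Of 1603 recomputed values of 85 gene results, 1491 stayed on the same side, 68 lost and 24 gained the adjusted p, and 20 changed sign, of which 0 were past the adjusted p. The sign of MT-CO1 with guide 1 turned with DESeq2's size factors and with DESeq2 (0.0059 in both), that of MT-TP with guide 2 by library size alone (-0.043) and by nuclear counts without TMM (-0.073), and those of MT-ATP8 (-0.095) and MT-TH (0.051) with guide 2 with the library number set as a term. With single libraries left out, the guide 1 values of MT-CO1 ranged from -0.037 to 0.023, MT-TY from -0.11 to 0.053, MT-TN from -0.021 to 0.068, MT-ATP8 from -0.76 to 0.37, MT-ND1 from -0.20 to 0.0020, MT-CYB from -0.14 to 0.042 and MT-TS1 from -0.84 to 0.0085.

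With guide 2, 17 mitochondrial genes were called (26 at the adjusted p alone, 11 with glmTreat, 13 to 22 with a library left out), with guide 1, 13 (8 with a mean of at least 1 CPM, 4 with glmTreat, 11 to 14), and between the guides, 7 (13 at the adjusted p alone, 11 with nuclear library size and no TMM, against 7 with nuclear library size and TMM, 6 to 10). These counts include 5, 5 and 1 tRNA genes that reached the filter level only in groups where they were high, and 20.4%, 16.5% and 28.2% of all genes tested were called lower. Protein genes past the adjusted p were 9 with guide 2 (5 with no filter, 5 with the set as a term, 5 to 11 with a library left out), 2 with guide 1 (5 in a fit of only the 6 libraries compared, 1 to 5) and 5 between the guides (4 to 10). Relative to the mitochondrial total, 10 genes were called with guide 2 (6 with the set as a term), 8 with guide 1 (13 at the adjusted p alone) and 7 between the guides (13). Of these, 5, 3 and 1 were tRNA genes that reached the filter level only in groups where they were high. On this scale 13.7% and 14.9% of all genes tested were lower with guide 2 and guide 1 at the adjusted p alone, so no larger share was called lower. The 10 and 8 called genes were all lower. For the guides against each other the share of all genes called on this scale is not given, so the 7 cannot be set against it. Without the rRNA genes the mitochondrial shares of the library were 4.43%, 3.09% and 4.09% in shScramble, guide 2 and guide 1. The mean of at least 1 CPM removes low tRNA genes, and the cause of the other shifts was not tested.

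Groups share replicate numbers. Deviations of same-numbered libraries had correlations of -0.20 to 0.12 in 9 pairs, against -0.12 to 0.20 in 18 pairs of other numbers. They thus showed no pairing by number, which such a check cannot exclude. With the replicate number as a block, 17, 13 and 8 genes were called in the 3 comparisons and 9, 2 and 5 protein genes passed the adjusted p. Without the low-count filter, MT-TF was at -0.60 with guide 2 (adjusted p = 0.562). Low counts limit the precision of most tRNA genes.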
